A study of Nicotiana attenuata with 6 samples.

Results

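HSP70-class chaperones of the coyote tobacco, Nicotiana attenuata, were followed in flower peduncles through every array probe whose name carries 1 of 4 protein entries: HSP71_SOLLC, HSP7C_PETHY, HSP7E_SPIOL and BIP_SOLLC. These 4 probes, out of 59157 on the array, had 1 spot each, and all 4 were well above background on all 6 arrays. In irZTL plants RNA interference silences ZEITLUPE (ZTL), which encodes a blue-light receptor that targets clock proteins for degradation, and the controls carried an empty vector (EV), with 3 arrays per genotype. Both genotypes were grown in a glasshouse with 16 h of light and 8 h of dark, and their peduncles, the stalks bearing the flowers, were taken at ZT0, as the lights came on, on the day of first flower movement. Each sample was a pool of peduncles, and the design text names irZTL-314 as the silenced line used. The labels do not say whether pools of a genotype came from separate sets of plants, so p-values measure the spread between these pools only.

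HSP70 proteins bind exposed hydrophobic stretches of unfolded polypeptides and release them in a cycle driven by ATP, with help from J-domain partners. Plants make several: cognate forms present in the cytosol of unstressed cells, forms strongly induced by heat, forms of plastids and mitochondria, and BiP in the lumen of the endoplasmic reticulum (ER), which folds secreted proteins and takes part in the unfolded protein response. In Arabidopsis the HSP90 chaperone works with GIGANTEA to mature the ZTL protein. HSP71_SOLLC is a tomato heat shock cognate protein, HSP7C_PETHY a petunia heat shock cognate protein, and BIP_SOLLC the tomato luminal-binding protein, BiP. HSP7E_SPIOL, a spinach entry, is catalogued as a heat shock-related protein of the chloroplast envelope membrane, so its placement with cytosolic forms rests on the grouping and not on the array. The names record matches to proteins of related plants. How far each probe also binds transcripts of other, closely similar HSP70 genes was not tested.

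The arrays were alike in brightness, with 75th percentiles of 239 to 327 in processed intensity and 29222 to 30175 probes flagged as well above background. Of the 59157 probes, 28683 carried that flag in all 3 replicates of irZTL, of EV or of both, and are called measured. The irZTL replicates 1 and 2 were hybridized on slide 1, and irZTL replicate 3 with the 3 EV arrays on slide 2. Same-numbered irZTL and EV pools deviated together from their genotype means across measured probes. Correlations were 0.39, 0.14 and 0.37 for numbers 1, 2 and 3, and -0.33 to 0.06 for unlike numbers. The sample titles do not call the numbers pairs, but on these values they are treated as pairs in a second fit. The silenced ZTL transcript was not analysed here. Levels below are log2 of the processed signal relative to the array's 75th percentile, unless called an intensity. Brightness also depends on a probe's sequence, so the levels of HSP70-class probes are not compared with each other. The sums of tissue markers and the shares among brighter probes do set different probes together and carry that limit.

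HSP71_SOLLC, HSP7C_PETHY and BIP_SOLLC varied 2.20-fold to 6.66-fold over the 6 arrays and moved together, and HSP7E_SPIOL varied 1.29-fold. None of the 4 passed the test of irZTL against EV (adjusted p under 0.05 and over 2-fold in limma) when the replicate numbers were ignored. HSP71_SOLLC passed when they were used as pairs, a pairing chosen from these same arrays. With slide as a fixed block its difference, irZTL minus EV, was -0.29 log2, beside -1.07 log2 without blocks.

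HSP71_SOLLC (NA10604_21842), the tomato cognate form, had processed intensities of 1837, 2240 and 3992 in irZTL replicates 1, 2 and 3, and of 2751, 6244 and 8123 in EV replicates 1, 2 and 3. Its levels were 2.78, 2.87 and 3.99 log2 in irZTL and 3.51, 4.26 and 5.09 log2 in EV. The 2 lowest arrays were irZTL and the 2 highest were EV, but irZTL replicate 3 lay above EV replicate 1, so the genotypes overlapped. The mean was 3.21 ± 0.67 log2 in irZTL and 4.28 ± 0.79 log2 in EV (SD, n = 3 each). The difference, irZTL minus EV, was -1.07 ± 0.47 log2 (SE; 95% interval -2.20 to 0.06), which is 2.10-fold lower, with a limma adjusted p of 0.272.

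HSP7C_PETHY (NA1082_21843), the petunia cognate form, varied most between arrays. Its intensities were 151, 158 and 327 in irZTL replicates 1, 2 and 3, and 164, 408 and 822 in EV replicates 1, 2 and 3. Its levels were -0.83, -0.95 and 0.38 log2 in irZTL and -0.56, 0.32 and 1.78 log2 in EV. EV replicate 3 stood highest by over 1 log2 unit, and irZTL replicate 3 lay just above EV replicate 2, so the genotypes overlapped. The difference was -0.98 ± 0.63 log2 (95% interval -2.49 to 0.53; limma adjusted p = 0.450), from means of -0.47 ± 0.74 in irZTL and 0.51 ± 1.19 in EV (SD, n = 3 each).

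BIP_SOLLC (NA18052_21576), the ER chaperone, had intensities of 486, 592 and 659 in irZTL replicates 1, 2 and 3, and of 530.4, 1148 and 954 in EV replicates 1, 2 and 3. Its levels were 0.86, 0.95 and 1.39 log2 in irZTL and 1.13, 1.81 and 2.00 log2 in EV. The arrays stood in the same order as for HSP71_SOLLC, with irZTL replicate 3 again above EV replicate 1. Its mean was 1.07 ± 0.28 log2 in irZTL and 1.65 ± 0.46 log2 in EV (SD, n = 3 each), a difference of -0.58 ± 0.25 log2 (95% interval -1.19 to 0.03; limma adjusted p = 0.268).

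HSP7E_SPIOL (NA8254_21845), the chloroplast envelope entry, was bright, with intensities of 38257, 40684 and 30476 in irZTL replicates 1, 2 and 3, and of 26792, 42530 and 29364 in EV replicates 1, 2 and 3, and was not saturated on any array. Scaled to the 75th percentile, its levels were 7.16, 7.06 and 6.92 log2 in irZTL and 6.79, 7.02 and 6.94 log2 in EV. The whole span was 0.37 log2, and the lowest irZTL array lay below the middle and highest EV arrays. Means of 7.05 ± 0.12 log2 in irZTL and 6.92 ± 0.12 log2 in EV (SD, n = 3 each) gave a difference of 0.13 ± 0.11 log2 (95% interval -0.13 to 0.39; limma adjusted p = 0.582). The interval leaves out a 2-fold change in either direction for this probe and does not for HSP71_SOLLC, HSP7C_PETHY or BIP_SOLLC.

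**Figure D1:**
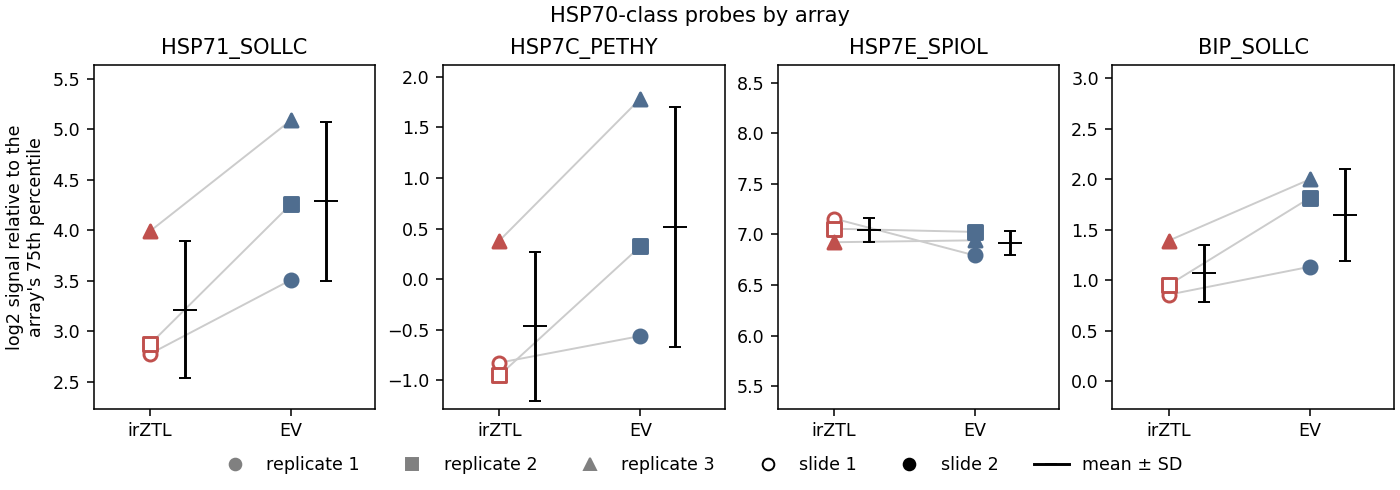
Log2 signal relative to the array's 75th percentile for each HSP70-class probe, with irZTL left and EV right in each panel. Symbols give the replicate number, open symbols slide 1 and filled symbols slide 2, grey lines join same-numbered pools, and black bars are mean ± SD (n = 3). All panels span the same height in log2 units. HSP71_SOLLC runs from 2.78 to 5.09 and HSP7E_SPIOL only from 6.79 to 7.16.

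The threshold was passed by 0 of the 4 HSP70-class probes and by 1.75% of measured probes, with 0.851% lower in irZTL. Without regard to p, 1 of the 4, HSP71_SOLLC, was at least 2-fold lower in irZTL, as were 1.79% of measured probes. None of the 4 had an unadjusted limma p under 0.05, which 20.1% of measured probes had. Genotypes that did not overlap were seen for 0 of the 4 and for 25.2% of measured probes. The differences of HSP71_SOLLC, HSP7C_PETHY, BIP_SOLLC and HSP7E_SPIOL were -1.07, -0.98, -0.58 and 0.13 log2. Their median was -0.78 log2, beside -0.01 log2 over all measured probes. HSP71_SOLLC, HSP7C_PETHY and BIP_SOLLC moved together over the arrays, so the 4 values are not independent. The exact permutation test gave p = 0.2 for HSP71_SOLLC and BIP_SOLLC and p = 0.3 for HSP7C_PETHY and HSP7E_SPIOL (two-sided), where 3 arrays against 3 cannot give less than 0.1.

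Within same-numbered pairs, HSP71_SOLLC, HSP7C_PETHY and BIP_SOLLC each kept the same direction, while the sizes varied. HSP71_SOLLC differed by -0.73, -1.38 and -1.10 log2 (irZTL minus EV) in pairs 1, 2 and 3. HSP7C_PETHY differed by -0.26, -1.27 and -1.40 log2, and BIP_SOLLC by -0.28, -0.86 and -0.61 log2. These 3 probes were lower in irZTL in every pair, as were 26.1% of measured probes. HSP7E_SPIOL differed by 0.37, 0.03 and -0.02 log2, with no common direction.

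With the replicate number as a block, HSP71_SOLLC fell by 1.07 ± 0.15 log2 in irZTL (limma adjusted p = 0.0292) and so passed the threshold, as 2.4% of measured probes did in that fit (1.2% passed and were lower in irZTL). The pairing was chosen from these same arrays, and the p-values do not allow for that choice. The other HSP70-class probes did not pass in that fit, with adjusted p of 0.0939 for HSP7C_PETHY, 0.0774 for BIP_SOLLC and 0.511 for HSP7E_SPIOL. The replicate number took up 52.9% of the sum of squares of HSP71_SOLLC over the arrays and the genotype 44.3%, which left 2.76%. For HSP7C_PETHY the shares were 65.7%, 27.0% and 7.31%, and for BIP_SOLLC 45.4%, 46.7% and 7.93%. For HSP7E_SPIOL neither took up most of it, with 15.1% for the replicate number, 30.0% for the genotype and 54.9% left. The median measured probe had 42.1% with the replicate number and 26.2% with the genotype.

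The genotypes were not balanced over the slides, and slide 1 held no EV array. Within irZTL, replicate 3 on slide 2 exceeded the mean of replicates 1 and 2 on slide 1 by 1.17 log2 for HSP71_SOLLC, 1.27 log2 for HSP7C_PETHY and 0.49 log2 for BIP_SOLLC, and was 0.18 log2 below it for HSP7E_SPIOL. Of all measured probes, 1.32% were higher there by more than 2-fold. Slide and pool cannot be told apart in that contrast. With slide as a fixed block, which sets irZTL replicate 3 against all 3 EV arrays, the differences of HSP71_SOLLC, HSP7C_PETHY and BIP_SOLLC were -0.29 ± 0.55, -0.13 ± 0.81 and -0.26 ± 0.33 log2 (limma adjusted p of 0.892, 0.973 and 0.833). Pair 3, the only pair within 1 slide, gave the -1.10, -1.40 and -0.61 log2 above. A fit with both the replicate and slide blocks, added after the data were seen, rests on that pair, and there HSP71_SOLLC had an adjusted p of 0.177, HSP7C_PETHY of 0.200 and BIP_SOLLC of 0.368.

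**Figure D2:**
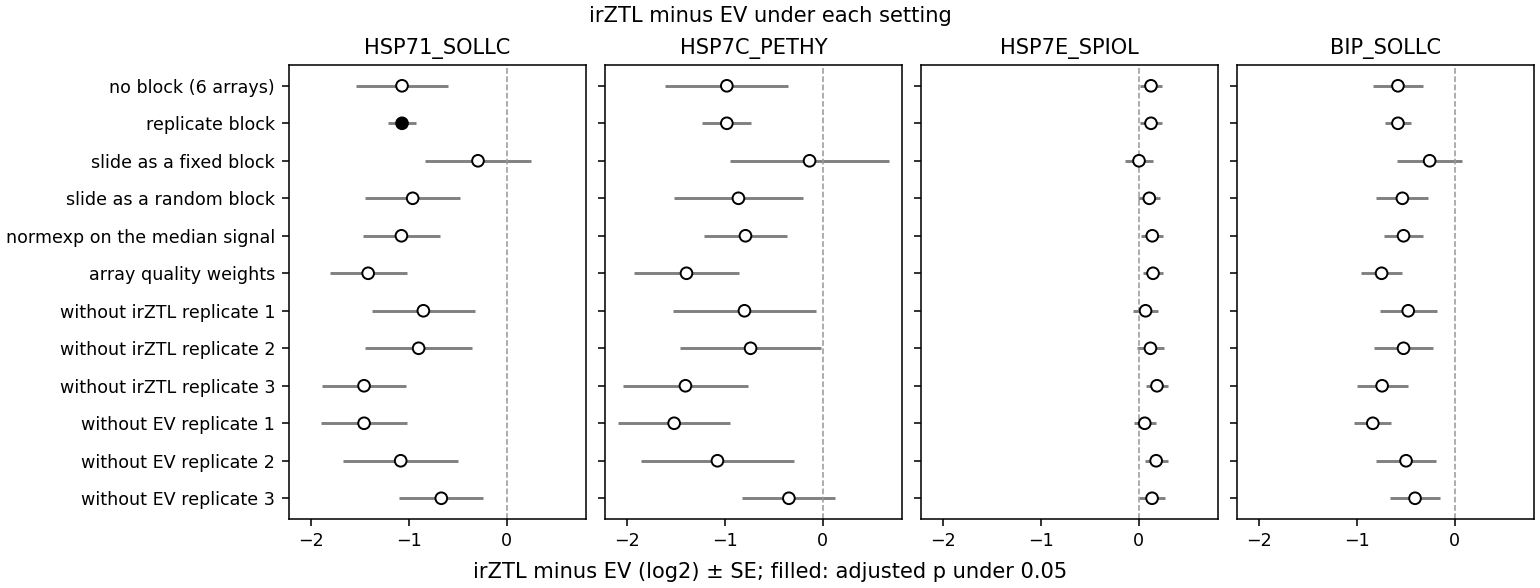
Difference between irZTL and EV (log2, irZTL minus EV) with its SE for each HSP70-class probe under 12 of the settings run, from top to bottom. A filled point has an adjusted p under 0.05. HSP71_SOLLC is filled only with the replicate block (-1.07 ± 0.15), and with slide as a fixed block its difference is -0.29.

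The probes fell apart by their spread between pools. The pooled SD within genotypes was 0.73 log2 for HSP71_SOLLC, 0.99 for HSP7C_PETHY, 0.38 for BIP_SOLLC and 0.12 for HSP7E_SPIOL, beside a median of 0.16 over all measured probes. Of the measured probes, 1.41% had a larger pooled SD than HSP71_SOLLC, 0.512% than HSP7C_PETHY, 10.6% than BIP_SOLLC and 69.3% than HSP7E_SPIOL. Among the measured probes at least as bright as each, these shares were 0.560%, 0.232%, 3.19% and 58.5%. From the lowest to the highest array HSP71_SOLLC spanned 4.96-fold, HSP7C_PETHY 6.66-fold, BIP_SOLLC 2.20-fold and HSP7E_SPIOL 1.29-fold.

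Error within an array can be set beside these spreads, but error from labelling and hybridization, which differs between arrays, was not measured separately from the pools. The scanner software put the error of each HSP70-class spot at no more than 10.3% of its signal. On the same arrays, 226 measured probes printed in 6 spots had a median SD of 0.08 to 0.09 log2 between their spots. The pooled SD of HSP71_SOLLC, HSP7C_PETHY and BIP_SOLLC exceeded that spot-to-spot SD several-fold, while that of HSP7E_SPIOL lay close to it. The median pixel signal of the HSP7C_PETHY spot was 6 to 29.1 times that of its local background, the lowest of these ratios being on irZTL replicate 1.

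**Figure D3:**
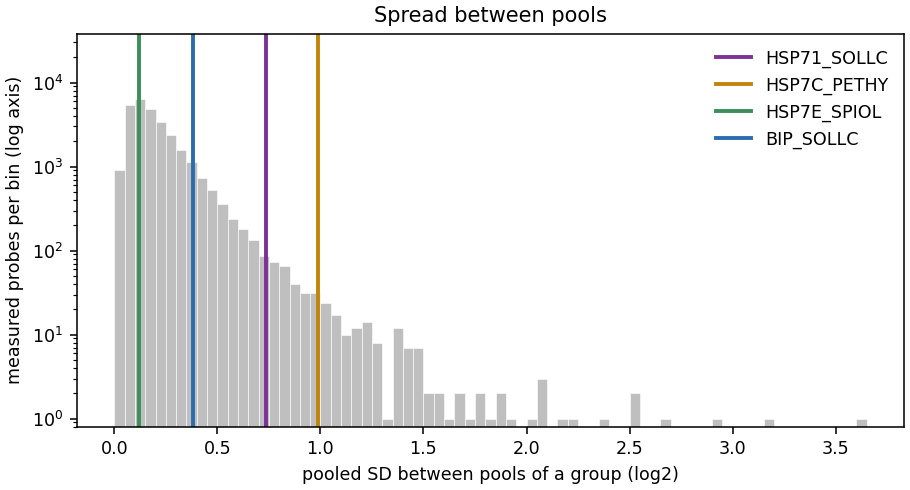
Number of measured probes (log axis) by their pooled SD between pools of a genotype, in log2 units, with coloured lines for the HSP70-class probes. HSP7E_SPIOL (0.12) lies on the left of the distribution below the median of 0.16, while HSP71_SOLLC (0.73) and HSP7C_PETHY (0.99) lie in its right tail.

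Over the 6 arrays the variable probes went up and down together. HSP71_SOLLC had a Pearson r of 0.97 with HSP7C_PETHY (exact permutation p = 0.00556, adjusted over 6 pairs 0.0111) and of 0.97 with BIP_SOLLC (exact permutation p = 0.00139, adjusted 0.00833). HSP7C_PETHY and BIP_SOLLC had an r of 0.93 (exact permutation p = 0.00556, adjusted 0.0111). Spearman's rho was 0.89, 1.00 and 0.89 for these pairs (exact permutation p of 0.0333, 0.00278 and 0.0333, adjusted 0.0667, 0.0167 and 0.0667). The permutation treats the arrays as exchangeable, which the genotypes, slides and paired pools make uncertain, and the probes were grouped with earlier results of these arrays known.

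The correlations stayed high on other cuts of the same arrays. On deviations from the genotype means, r was 0.98 for HSP71_SOLLC with HSP7C_PETHY, 0.95 for HSP71_SOLLC with BIP_SOLLC and 0.92 for HSP7C_PETHY with BIP_SOLLC. Without the 2 arrays farthest from the median of the first-named probe it was 0.96, 0.93 and 0.88. On the 4 arrays of slide 2 alone (irZTL replicate 3 and the EV arrays) it was 0.98, 0.94 and 0.87, given without a test, and slide 1 held only 2 arrays.

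HSP7E_SPIOL had no settled relation to them. Over the 6 arrays its r was -0.43 with HSP71_SOLLC, -0.29 with HSP7C_PETHY and -0.28 with BIP_SOLLC, with exact permutation p of 0.410, 0.564 and 0.568 (adjusted 0.568 for each). Spearman's rho was -0.49, -0.54 and -0.49, with exact permutation p of 0.356, 0.297 and 0.356 (adjusted 0.356 for each). Without the 2 arrays farthest from the median of the first-named probe, or of HSP7E_SPIOL for the last pair, r was -0.11, -0.18 and -0.46. On deviations from the genotype means it was -0.10, -0.01 and 0.15. On the 4 arrays of slide 2 alone it was positive, at 0.59, 0.52 and 0.79. With 1 array left out it ran from -0.79 to -0.09, from -0.77 to -0.02 and from -0.70 to 0.12. With 6 arrays and so small a range in HSP7E_SPIOL, these values settle no direction.

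**Figure D4:**
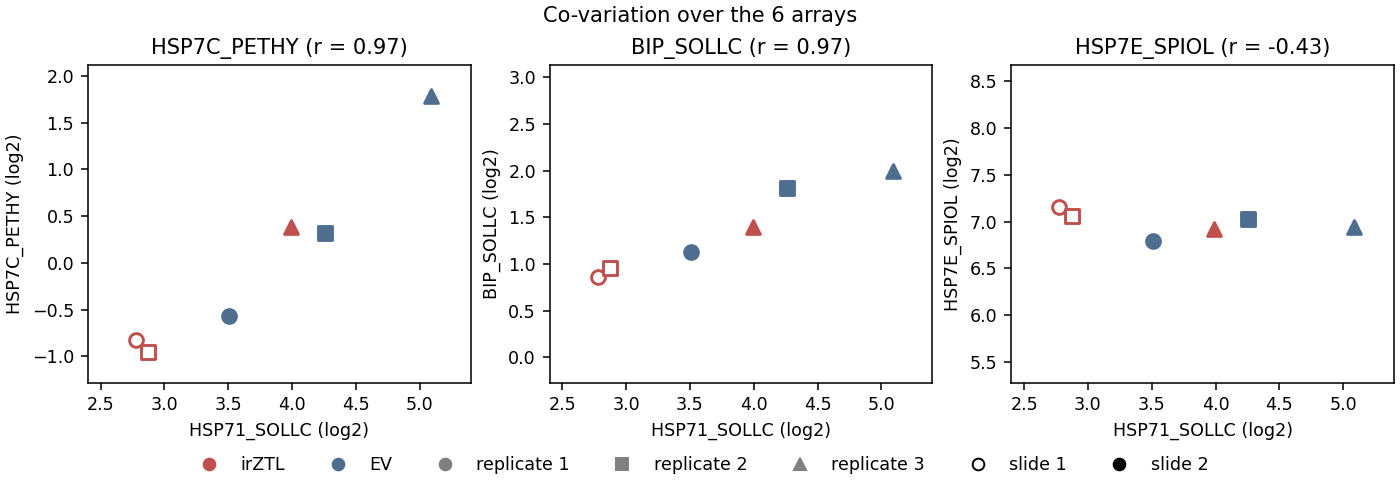
Log2 levels of HSP7C_PETHY, BIP_SOLLC and HSP7E_SPIOL (vertical axes, equal spans) against HSP71_SOLLC (horizontal axis) on the 6 arrays, coloured by genotype, with symbols for the replicate number and open symbols for slide 1. HSP7C_PETHY and BIP_SOLLC climb with HSP71_SOLLC (r of 0.97 for both), and HSP7E_SPIOL stays within 0.37 log2 (r of -0.43).

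Other measured probes also had high correlations with the HSP70-class probes, and the values above are read against them. Of all measured probes, 0.736% had an r with HSP71_SOLLC at least as high as HSP7C_PETHY had, and 0.725% at least as high as BIP_SOLLC had. For HSP7C_PETHY with BIP_SOLLC the share was larger, at 1.51% counted from HSP7C_PETHY and 3.47% counted from BIP_SOLLC. Counting probes with an r of at least 0.95, HSP71_SOLLC had 527 (1.84% of measured probes), BIP_SOLLC 553 (1.93%), HSP7C_PETHY 228 (0.795%) and HSP7E_SPIOL 35 (0.122%). The median measured probe had 0.300% of the others that alike, with quartiles of 0.153% and 0.635%. HSP71_SOLLC, BIP_SOLLC and HSP7C_PETHY lay above the upper quartile and HSP7E_SPIOL below the lower one.

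Among the 196 other measured probes with a readable protein name, those most like each HSP70-class probe over the 6 arrays were taken by Pearson r, 3 for each. For HSP71_SOLLC they were PPR85_ARATH, a pentatricopeptide repeat entry (r = 0.95), EFTUB_NICSY, an elongation factor Tu of the chloroplast (0.94), and CB23_SOLLC, a chlorophyll a/b-binding protein (0.92). For BIP_SOLLC they were EFTUB_NICSY (0.99), PPR85_ARATH (0.97) and PGKY_TOBAC, a phosphoglycerate kinase of glycolysis (0.95). For HSP7C_PETHY they were DOF53_ARATH, a Dof zinc finger transcription factor (0.97), BIP5_TOBAC, a tobacco luminal-binding protein (0.94), and SPP2_TOBAC, a sucrose phosphatase (0.92). For HSP7E_SPIOL they were ILVB1_TOBAC, an acetolactate synthase of branched-chain amino acid synthesis (0.97), RL10_VITRI, a ribosomal protein (0.88), and ISU2_ARATH, an iron-sulfur cluster scaffold (0.86). Likeness in pattern did not mean likeness in size. EFTUB_NICSY had a pooled SD of 0.08 log2, where HSP71_SOLLC had 0.73 and BIP_SOLLC 0.38.

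The list of other chaperone, folding, proteolysis and redox entries matched 12 further named probes, of which 9 were measured. None of the 9 passed the threshold in either direction (1.75% of measured probes passed). Their median difference was -0.02 log2, beside -0.01 for all measured probes. The other 3 were well above background on none of the 6 arrays: HSP82_TOBAC, an HSP90-class chaperone, PDI51_ARATH, a protein disulfide isomerase, and UBQ8_ARATH, a polyubiquitin.

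BIP5_TOBAC, the second BiP entry, had levels of 1.13, 1.04 and 1.46 log2 in irZTL and of 1.19, 1.20 and 2.19 log2 in EV. EV replicate 3 stood apart at the top and the remaining arrays overlapped between the genotypes. Its difference was -0.32 ± 0.29 log2 (limma adjusted p = 0.601), and 0.01 log2 without EV replicate 3. Its r was 0.94 with HSP7C_PETHY, 0.85 with HSP71_SOLLC and 0.75 with BIP_SOLLC.

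None of the measured proteolysis and redox probes was lower in irZTL by as much as HSP71_SOLLC, HSP7C_PETHY or BIP_SOLLC. The 2 probes of PSA6_TOBAC, a subunit of the proteasome core, differed by 0.03 ± 0.12 and -0.02 ± 0.09 log2 (limma adjusted p of 0.925 and 0.909), and TRXH2_TOBAC, a thioredoxin, by -0.06 ± 0.13 log2 (limma adjusted p = 0.849). The 2 probes of UBI1P_NICSY differed by -0.13 ± 0.11 and -0.02 ± 0.12 log2 (limma adjusted p of 0.591 and 0.962). Their r was 0.79 and 0.19 with HSP71_SOLLC, 0.81 and 0.25 with HSP7C_PETHY, and 0.68 and 0.36 with BIP_SOLLC. CATA3_NICPL, a catalase, had a probe higher in irZTL by 0.59 ± 0.11 log2 (limma adjusted p = 0.0368, below 2-fold; 0.0523 with the replicate block) and a second probe with a difference of 0.22 ± 0.12 log2 (adjusted p = 0.384). GLRX_SOLLC, a glutaredoxin, differed by 0.78 ± 0.17 log2 (limma adjusted p = 0.0620, and 0.0484 with the replicate block, below 2-fold). That probe was well above background on 2 of the 3 EV arrays, and with normexp background correction its difference was 0.17 log2 (limma adjusted p = 0.464). The median difference of the 4 redox probes was 0.40 log2.

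Markers of tissue moved with some of these values. Of 7 green-tissue probes, all measured, CB23_TOBAC, another chlorophyll a/b-binding protein, differed by -2.46 log2 and RCA_SOLPN, the Rubisco activase, by -1.34 log2 (limma adjusted p of 0.00497 and 0.00541), and the other 5 did not pass. Their r with HSP71_SOLLC ran from -0.70 for PSAEB_NICSY, a photosystem I subunit, to 0.92 for CB23_SOLLC. The summed linear level of the 7, relative to the 75th percentile, was 1216 to 1371 in irZTL and 1252 to 1500.4 in EV. RBS2_NICSY, the Rubisco small subunit, made up 80.5% to 87.6% of that sum and differed by -0.05 log2. The other 6 summed to 168 to 177 in irZTL and 214 to 244 in EV, without overlap. Among single measured probes, 25.2% did not overlap either. Of those 6, CB23_SOLLC was also lower in irZTL, with means of 2.73 log2 in irZTL and 4.43 log2 in EV. CAHC_TOBAC, PSAEA_NICSY and PSAEB_NICSY differed by only -0.05, -0.02 and 0.07 log2, so the green-tissue list did not move as a whole. POLC2_TOBAC, a pollen calcium-binding protein, was lower in irZTL by less than 2-fold (-0.60 log2, limma adjusted p = 0.0461) and had an r of 0.67 with HSP71_SOLLC and 0.72 with BIP_SOLLC. LAT52_SOLLC, a pollen protein, had an r of -0.02 with HSP71_SOLLC and 0.01 with BIP_SOLLC. Its difference was -0.96 log2 (limma adjusted p = 0.712). Its levels were -0.74, -5.42 and -2.91 log2 in irZTL and -1.51, -1.20 and -3.49 log2 in EV, with irZTL replicate 2 lowest. The 2 pollen probes had sums of 0.311 to 0.919 in irZTL and 0.529 to 0.976 in EV. The 3 probes of vascular and lignifying tissue had sums of 37.3 to 55.4 in irZTL and 35.5 to 47.6 in EV. Of these, 4CL1_TOBAC, a coumarate ligase of lignin synthesis, had an r of 0.90 with HSP7C_PETHY and differed by -0.19 log2. CAMT5_TOBAC and CAMT6_TOBAC had an r of only 0.30 and 0.25 with it and differed by 0.21 and 0.31 log2, so this list did not move as a whole either. The part of the tissue markers in the HSP70-class differences was not tested. In a pool of whole peduncles, fewer cells of a type and less RNA per cell cannot be told apart.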

How the data were processed

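The authors hybridized Cy3-labelled peduncle RNA to one-colour Agilent arrays and extracted spot intensities with Agilent Feature Extraction, version 10.7.3.1 per the file headers and 9.5 per the submitters' processing notes. The deposited intensity used is the processed signal, background-subtracted and spatially detrended within the array, per the file headers. In the table of values the authors deposited, numbers are log2 scaled by the 75th percentile (per the design text). Here control and outlier spots were left out, spots of a probe averaged, and log2 processed signal minus each array's 75th percentile used. 99.89% to 99.92% of probes lay within 0.02 of the deposited log2 values. Probes flagged well above background in every replicate of irZTL or EV were fitted with limma 3.58.1 in R 4.3.3 (lmFit and eBayes), and two-sided p-values were adjusted by Benjamini-Hochberg over all 28683. The threshold was an adjusted p under 0.05 and over 2-fold change. The fit without blocks was tested on simulated data with independent noise and no slide or replicate structure. That test does not cover the fits with blocks.

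Replicate numbers come from the sample titles. They were taken as pairs because each same-numbered irZTL and EV array correlated above 0.1 in deviations from genotype means (0.39, 0.14 and 0.37). Deviations within a genotype sum to 0, so these correlations depend on each other. The titles do not call the numbers pairs, and the p-values of the replicate block do not allow for choosing the pairing from the same data. The members, the lists and the alternatives were chosen with earlier results of these data known. Named probes are the members, every probe of the folding, proteolysis, redox and tissue lists, and the 3 named probes most like each member. Of the 4 member names and identifiers, 0 matched the RefSeq gene table, so no gene, position or sequence is given. With 6 arrays, precision is limited by their number.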

Additional observations from a re-analysis of the deposited data

How the results depend on the processing

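Over 18 alternatives HSP71_SOLLC ran from -1.46 to -0.29 log2 (adjusted p from 0.0292 to 0.9497), HSP7C_PETHY from -1.52 to -0.13, BIP_SOLLC from -0.84 to -0.26 and HSP7E_SPIOL from -0.02 to 0.19. HSP71_SOLLC gained a call with the replicate block (-1.07 log2, adjusted p = 0.0292), which changed no other call on the HSP70-class or listed probes. HSP7E_SPIOL turned in direction to -0.0188 log2 with the replicate block and slide as a fixed block together, where it rests on 1 pair. With 1 array left out, HSP71_SOLLC ran from -1.46 to -0.67, HSP7C_PETHY from -1.52 to -0.35, BIP_SOLLC from -0.84 to -0.41 and HSP7E_SPIOL from 0.06 to 0.19. The lowest sizes for HSP71_SOLLC, HSP7C_PETHY and BIP_SOLLC were those without EV replicate 3.

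The count of all probes past the threshold, 502, became 759 with array quality weights, 1156 with no fold minimum, 260 when dim probes were kept, 267 with normexp and 77 with the methods' t-test. A fixed slide block gave 207, the arrays of slide 2 on their own 62, and the replicate and slide blocks together 171. With 1 array left out it ran from 242 to 718, with 303 for irZTL replicate 1, 271 for irZTL replicate 2, 242 for EV replicate 2 and 316 for EV replicate 3 left out. The cause was not tested.

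Spearman's rho, 0.89, did not keep the adjusted p under 0.05 for HSP71_SOLLC with HSP7C_PETHY or HSP7C_PETHY with BIP_SOLLC (0.0667 each). The r of HSP71_SOLLC with BIP_SOLLC was 0.93 without the 2 farthest arrays. With 1 array left out, r ran from 0.95 to 0.98, 0.95 to 0.99 and 0.89 to 0.99 for HSP71_SOLLC with HSP7C_PETHY, HSP71_SOLLC with BIP_SOLLC and HSP7C_PETHY with BIP_SOLLC, and the pooled SD of BIP_SOLLC from 0.24 (without EV replicate 1) to 0.43. Directions near 0 turned for some listed probes. With 1 array left out, BIP5_TOBAC ran from -0.483 to 0.0133 log2 and TRXH2_TOBAC from -0.142 to 0.0559. BIP5_TOBAC turned only when EV replicate 3 was left out. In the order given above, the first PSA6_TOBAC probe ran from -0.0436 to 0.111 and the second UBI1P_NICSY probe from -0.121 to 0.0613. The second PSA6_TOBAC probe (-0.0619 to -0.00542) and the first UBI1P_NICSY probe (-0.187 to -0.0446) did not turn there. The first PSA6_TOBAC probe was -0.0333 with array quality weights, and the second was 0.000828 with quantile normalization. The second UBI1P_NICSY probe was 0.0101 with quantile normalization, and TRXH2_TOBAC 0.0336 with normexp and 0.0169 with array quality weights. With normexp, HSP7C_PETHY was -0.79 log2.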

Other observations

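Within each array, the log2 ratio of HSP71_SOLLC to HSP7C_PETHY moved less than either probe. It was 3.60, 3.83 and 3.61 in irZTL and 4.07, 3.93 and 3.30 in EV, a span of 0.77 log2 beside 2.31 for HSP71_SOLLC and 2.74 for HSP7C_PETHY. Its mean was 3.68 ± 0.13 in irZTL and 3.77 ± 0.41 in EV (SD, n = 3 each), a difference of -0.09 (exact permutation p = 0.8, two-sided), and the differences within pairs 1, 2 and 3 were -0.47, -0.11 and 0.31. The ratio of HSP71_SOLLC to BIP_SOLLC was 1.92, 1.92 and 2.60 in irZTL and 2.37, 2.44 and 3.09 in EV. It spanned 1.17 log2, beside 1.14 for BIP_SOLLC itself, and differed by -0.49 (exact permutation p = 0.3 without pairing). Within pairs 1, 2 and 3 it differed by -0.46, -0.52 and -0.49, the same sign and nearly the same size. Ratios were taken between all 4 members, and only those of HSP71_SOLLC to HSP7C_PETHY and to BIP_SOLLC are given. The ratios of HSP7E_SPIOL to each other member also kept the same sign in pairs 1, 2 and 3. The exact sign-flip test on these pairs, added after the data were seen, gave p = 0.25, the smallest that 3 pairs allow. Any 3 differences of the same sign give that value, so the test adds nothing to the signs. On the log2 scale the cognate probe spanned more between arrays than the BiP probe, and replicate 3 had the highest ratio in both genotypes.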
